A study of Xenopus tropicalis with 11 samples.

Results

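The p300-only Otx2 intervals are Otx2 peaks of Xenopus tropicalis embryos that overlap a called peak of the coactivator p300. They carry no called peak of the corepressor TLE or of the homeodomain factors Lim1 and Gsc. They were chosen by overlap of the deposited peak lists: an Otx2 interval on a chromosome entered when it shared at least 1 bp with a p300 peak and no base with a TLE, Lim1 or Gsc peak. This gave 22177 intervals, 13.3% of the 166593 Otx2 intervals on chromosomes. The whole Otx2 list holds 194993 intervals once unplaced scaffolds are counted. Because Otx2, p300, TLE, Lim1 and Gsc calls made the choice, their widths, strengths and distances are given as descriptions. The overlap rule did not use the histone marks, and they are the measures compared between classes. The members and classes were nevertheless chosen with earlier results of these data known.

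Otx2 is a homeodomain transcription factor that binds sites of the Bicoid type and is required for the head organizer and the anterior neural plate of vertebrates. In the early gastrula of Xenopus it is present in dorsal mesendoderm and in ectoderm, and with Lim1 (also called Lhx1) it activates head organizer genes, whereas Gsc (goosecoid) is an organizer repressor that recognises similar sequences. p300 is a histone acetyltransferase that transcription factors recruit to enhancers, and lysine 27 of histone H3 is among its substrates. TLE, the vertebrate Groucho protein, has no DNA-binding domain of its own and is brought to DNA by repressors. H3K4me1, monomethylated lysine 4 of histone H3, lies at enhancers in general, and H3K27ac, acetylated lysine 27, lies at active enhancers and promoters.

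The study mapped all 7 proteins and marks by ChIP-seq in whole embryos of the Nigerian A strain at stage 10.5, the early gastrula, with 1 library per antibody and chromatin from 2000 to 3000 fixed embryos. Antibodies to Otx2, Lim1 and Gsc had been published earlier, and those to TLE, p300, H3K4me1 and H3K27ac were commercial. The embryos carried no labelled transgene, mutation or treatment, and 4 input libraries served as controls. The Otx2 and Lim1 libraries shared an input, as did TLE and p300 and the 2 histone marks, whereas Gsc had its own. Whole embryos mix all germ layers, so proteins called on the same bases may have been bound in different cells, and fewer bound cells cannot be told apart from less binding per cell. Without replicate libraries no replicate error can be given. Shares carry exact (Clopper-Pearson) 95% intervals that cover counting error only, intervals of the genome are not replicates of a condition, and read depth is unknown from peak lists. The genome build of the lists is not named in the sources used here, so coordinates are those of the lists counted from 1, and no interval is assigned to a gene or printed as sequence.

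Most p300-only intervals lay outside both marks, and more of them carried a mark than of the Otx2 intervals with TLE alone or with neither coregulator. Of the 22177 intervals, 2266 met an H3K27ac domain, which is 10.2% (9.82 to 10.6%), against 15.9% of all Otx2 intervals on chromosomes. H3K4me1 was met by 4483, or 20.2% (19.7 to 20.7%), against 27% of all Otx2 intervals. Both marks were met by 1615 p300-only intervals, or 7.28%, against 11.8% of all. H3K27ac without H3K4me1 was met by 651, or 2.94%, against 4.11% of all. H3K4me1 without H3K27ac was met by 2868, or 12.9%, against 15.2% of all. The remaining 17043, or 76.8%, met neither mark, against 68.9% of all Otx2 intervals. Every share of marked intervals thus lay below that of the Otx2 list as a whole, which also contains the 32395 intervals with Lim1 or Gsc.

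The p300-only intervals were compared with the 3 other classes of Otx2 interval that met neither Lim1 nor Gsc. These were 22286 intervals with TLE and no p300, 37293 with both coregulators and 52442 with neither. H3K27ac was met by 4.98% of the TLE-only intervals, 18.7% of those with both coregulators and 5.76% of the last class. H3K4me1 lay on 14.9% of the TLE-only intervals, 42.3% with both coregulators and 8.42% with neither. The 10.2% and 20.2% of p300-only intervals therefore stood between the intervals with both coregulators and the other 2 classes, for both marks.

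**Figure D1:**
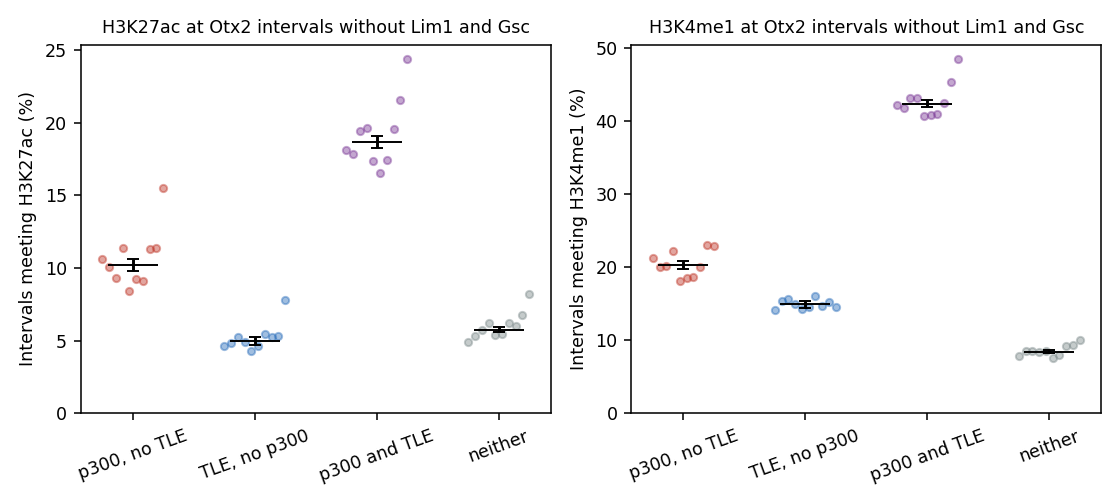
Share of Otx2 intervals without Lim1 and Gsc that met an H3K27ac domain (left, %) or an H3K4me1 domain (right, %), by class. Black dashes with bars are the share over all chromosomes with its exact 95% interval and dots are the 10 chromosomes; intervals with p300 and no TLE (10.2 and 20.2%) lie below those with both coregulators and above the other classes.

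Longer intervals meet a domain more easily, so Mantel-Haenszel odds ratios were formed within strata of interval width, with a difference called where the 95% interval left out 1. The odds of H3K27ac at p300-only intervals were 2.31 times those at TLE-only intervals (2.14 to 2.49). Against intervals with neither coregulator the H3K27ac odds ratio was 1.65 (1.55 to 1.74), and against those with both it was 0.751 (0.710 to 0.794). For H3K4me1 the odds ratios were 1.51 (1.44 to 1.59) against TLE only, 2.49 (2.38 to 2.61) against neither and 0.429 (0.411 to 0.447) against both. All 6 differences were called, and the order of the raw shares was the same on 10 of 10 chromosomes for each. The order also held in each of the 9 width strata for 5 of the 6 comparisons. The exception was H3K27ac against both coregulators, where p300-only intervals were the higher in 1 of 9 strata, that of 268 to 354 bp, at 18.3% against 18.0%.

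Some of these odds ratios changed direction or call with the rule for overlap, the threshold of a list or the distance of the excluded peaks. When an overlap had to cover at least 50% of the shorter interval, the H3K27ac odds ratio against both coregulators turned from 0.751 to 1.12. It became 1.83 when TLE, Lim1 and Gsc peaks counted only from a −log10 q of 10 upwards. That threshold kept 48.1% of the TLE, 0.729% of the Lim1 and 11.5% of the Gsc intervals. The p300-only class then took in intervals that met weaker peaks of these 3 proteins. The H3K4me1 odds ratio against TLE only turned from 1.51 to 0.764 when p300 peaks counted only from the same threshold. In that setting the TLE-only class also took in intervals with TLE and a weaker p300 peak. The ratio was 0.936 (0.852 to 1.03), not called, in the highest quintile of p300 fold. It was 1.01, also not called, with Lim1 and Gsc kept 1000 bp from all classes, and TLE from intervals without a TLE peak. TLE-only intervals thus kept their TLE peaks, so the rule was not the same for both classes. This setting and the quintile were chosen after seeing the data. The H3K4me1 odds ratio against both coregulators was 1.11, with an interval that includes 1, for strict mark domains. The H3K27ac odds ratio against TLE only lay above 1 in all 16 settings other than leaving out a chromosome, without being called among strict Otx2 intervals, and ranged from 1.16, with marks counted up to 1000 bp away, to 10.8 with strict mark domains.

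With width held equal, p300-only intervals with H3K4me1 carried H3K27ac more often than those of the other classes, though only narrowly against neither coregulator. These odds ratios were added after the data were examined and were not recomputed in the alternative settings. Of the 4483 with H3K4me1, 36.0% (34.6 to 37.5%) also met H3K27ac, compared with 20.1% of H3K4me1 intervals with TLE only, 35.8% with both coregulators and 31.7% with neither. At equal Otx2 width, the odds of H3K27ac among H3K4me1 intervals were 2.22 times those of TLE only (2.0 to 2.47), 1.44 times those of both coregulators (1.34 to 1.55) and 1.11 times those of neither (1.02 to 1.22). In the other direction, 71.3% of p300-only intervals with H3K27ac also met H3K4me1, compared with 60.1% for TLE only, 81.3% for both coregulators and 46.4% for neither. The raw shares of H3K27ac given H3K4me1 were thus alike with and without TLE at p300, although far fewer p300-only intervals had H3K4me1 at all.

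Strict mark domains were few in the lists themselves, and few Otx2 intervals of any of the 4 classes met one. Domains with a −log10 q of at least 10 made up 5.36% of all H3K27ac and 3.21% of all H3K4me1 domains. The threshold alone therefore keeps the shares low. Limited to these domains, H3K27ac was met by 431 p300-only intervals (1.94%, 1.77 to 2.13%) and by 42 TLE-only intervals (0.188%, 0.136 to 0.255%). The corresponding shares were 3.73% with both coregulators and 0.318% with neither. For H3K4me1 the strict shares were 1.51% of p300-only, 0.157% of TLE-only, 2.08% of both and 0.235% of neither. Strict domains were thus met mainly by intervals with p300, with or without TLE, while fewer than 1 in 100 intervals of either class without p300 met one.

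The domains met by p300-only intervals were wider than the median of their lists, as were those met by the other 3 classes. The 2225 distinct H3K27ac domains had a median width of 490 bp and a median fold of 3.11, where the chromosome list as a whole had medians of 276 bp and 2.69. The 4373 H3K4me1 domains had medians of 592 bp and 3.07, against 363 bp and 2.83 for the list. H3K27ac domains met by the other classes had median widths of 321 bp for TLE only, 444 bp for both coregulators and 348 bp for neither, and H3K4me1 domains 479, 604 and 428 bp. A wider domain is more easily met, so these values were not tested. The midpoint of the p300-only interval lay inside the H3K27ac domain in 78.2% of cases (76.4 to 79.8%), compared with 49.5% for intervals with both coregulators, 63.7% for TLE only and 79.6% for neither. Width was not held in these shares. The median width was 209 bp over all intervals with both coregulators and 112 bp over all p300-only intervals, and the part this plays was not tested. A total of 195 p300-only intervals (0.879%) met no H3K27ac domain but had one on both sides within 1000 bp. That share was 4.88% with both coregulators, 1.35% with TLE only and 0.757% with neither. A domain on only 1 side within 1000 bp was found at 2604 p300-only intervals that met none (11.7%). The share was 19.7% with both coregulators, 14.2% with TLE only and 10.6% with neither.

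The p300-only intervals were shorter than the Otx2 list on chromosomes, and their median Otx2 fold lay just below that of the list. The medians of that list were 141 bp and a fold of 3.64. Their median width was 112 bp, the 95th percentile was 304 bp, and 12.7% had the shortest width in the list, 66 bp. The median width was 130 bp for TLE only, 209 bp for both coregulators and 91 bp for neither. The median Otx2 fold enrichment, the authors' own ratio of signal to local background, was 3.54 with a range from 1.75 to 12.6. It was 3.62 for TLE only, 4.24 for both coregulators and 3.24 for neither. An Otx2 −log10 q of at least 10 was reached by 411 p300-only intervals (1.85%), against 5.27% of the whole Otx2 list with scaffolds. The share was 1.47% for TLE only, 5.83% for both coregulators and 0.164% for neither.

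**Figure D2:**
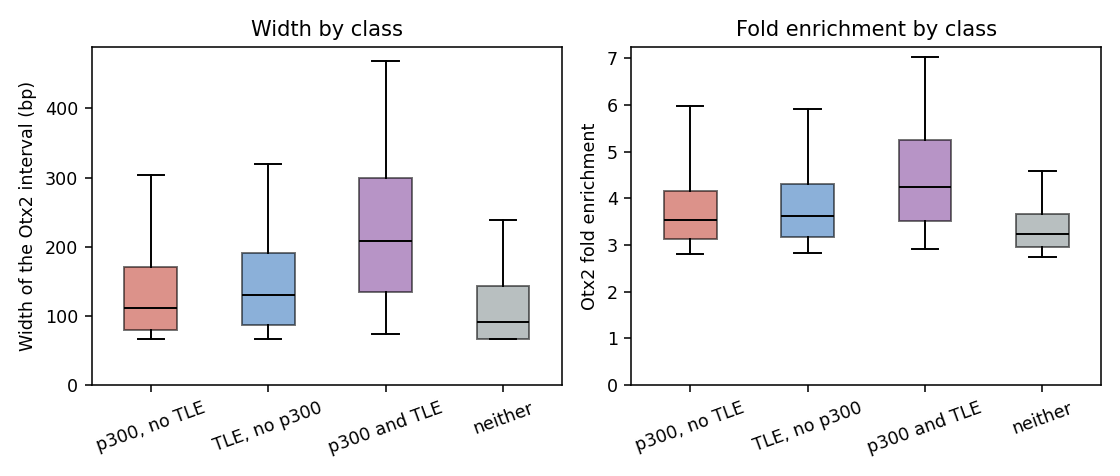
Width of the Otx2 interval (left, bp) and Otx2 fold enrichment as deposited (right) by class. Boxes span the 25th to 75th percentile with the median as a line and whiskers reach the 5th and 95th percentile; intervals with p300 and no TLE have a median of 112 bp and a fold of 3.54, close to those with TLE alone and below those with both.

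A p300 fold of at least 10 was more frequent at p300-only intervals than at those with both coregulators, whereas a p300 −log10 q of at least 10 was less frequent. The median p300 fold was 5.11 for p300-only intervals and 5.36 for those with both coregulators, but the 95th percentiles were 15.1 and 11.7. A p300 fold of at least 10 was found at 3612 p300-only intervals (16.3%) and at 9.40% of those with both. By q the order was the other way, with 37.4% of p300-only intervals and 42.3% of those with both at or above 10. Of the whole p300 list with scaffolds, 32.1% of peaks reached that q. The median fold of the p300 list on chromosomes was 4.68. The p300 peaks themselves were narrower without TLE, with a median of 128 bp against 179 bp. The p300 summit lay a median of 30 bp from the midpoint of the Otx2 interval and was inside it in 82.2% of cases. A single p300 peak was met by 97.7% of the intervals, and the 22638 distinct p300 peaks involved were 15.0% of the p300 list on chromosomes. Of those peaks, 415 (1.83%) met a TLE peak outside the Otx2 interval. The rule kept TLE off the Otx2 interval, where most p300 summits lay, so this low share largely follows from the choice. Across the 22177 intervals the Spearman correlation between Otx2 fold and p300 fold was 0.309, and it was 0.409 across the 37293 with both coregulators. Both values come from the same bases of the genome and from 1 library each, so they are descriptions.

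The p300-only intervals of highest p300 fold carried marks least often. The p300-only intervals were divided into quintiles of p300 fold, and the same fold limits were applied to the intervals with both coregulators. In the lowest quintile, up to a fold of 3.82, 16.2% of p300-only intervals met H3K27ac (15.1 to 17.3%), followed by 10.6%, 8.69% and 8.18%. In the highest quintile, above 8.95, the share was 7.60% (6.83 to 8.42%). With both coregulators the order ran the other way, from 11.1% in the lowest range to 42.3% in the highest (41.0 to 43.7%). H3K4me1 went from 26% to 13.8% over the quintiles of p300-only intervals and from 32.5% to 60.7% with both coregulators.

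**Figure D3:**
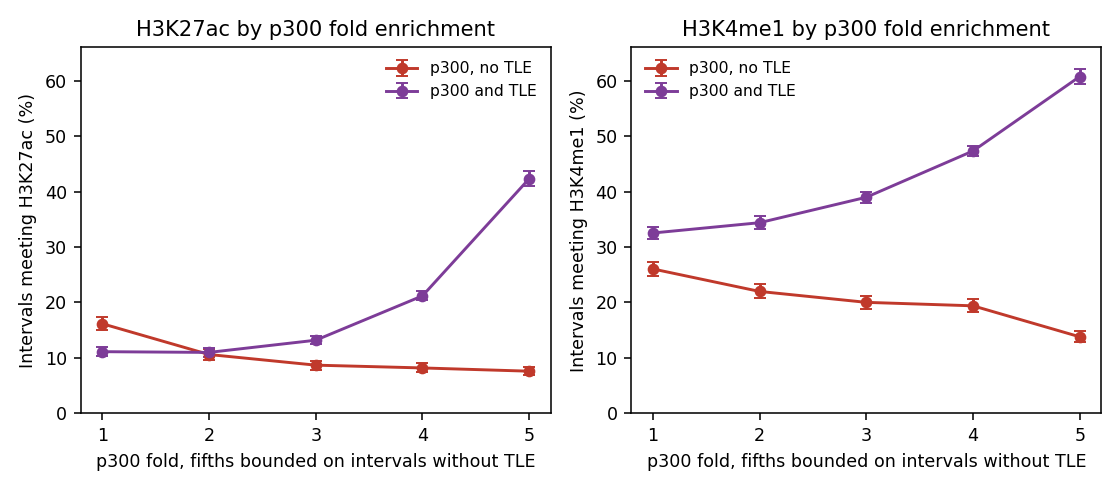
Share of Otx2 intervals that met H3K27ac (left, %) or H3K4me1 (right, %) over 5 ranges of p300 fold enrichment, bounded by the quintiles of the intervals with p300 and no TLE. Points are shares with exact 95% intervals; red falls from 16.2 to 7.60% for H3K27ac where purple, with TLE also present, rises from 11.1 to 42.3%.

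The difference from intervals with both coregulators changed with p300 fold. At equal Otx2 width, the H3K27ac odds ratio of p300-only intervals against those with both coregulators was 1.77 (1.58 to 1.99) in the lowest p300 range and 1.21 (1.06 to 1.39) in the next. It was 0.909 (0.800 to 1.03) in the middle, 0.567 (0.497 to 0.646) above that and 0.172 (0.149 to 0.198) in the highest. For H3K4me1 the odds ratio was below 1 in all 5 ranges and went from 0.794 (0.727 to 0.866) to 0.148 (0.132 to 0.167). The overall H3K27ac odds ratio of 0.751 therefore averaged over ranges with opposite directions. Within the ranges the p300 peaks of the p300-only intervals were also narrower, with medians from 101 to 164 bp against 116 to 305 bp, and the part this plays was not tested.

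Otx2 strength showed the same direction at p300-only intervals and width the opposite one. From the lowest to the highest quintile of Otx2 fold, the share with H3K27ac went from 15.0% to 6.04% and the share with H3K4me1 from 23.2% to 16.9%. TLE-only intervals within the same fold limits went from 7.0% to 3.22% for H3K27ac, and those with neither coregulator from 7.67% to 2.92%. Intervals with both coregulators had 17.3% in the lowest and 19.1% in the highest range. From the narrowest to the widest quintile, H3K27ac at p300-only intervals went from 7.26% to 17.1% and H3K4me1 from 15.2% to 30.3%. The Spearman correlation between width and fold was -0.030 across the 22177 p300-only intervals. Width still differed between the quintiles of Otx2 fold. The median was 129 bp in the lowest, then 118, 106 and 100 bp, and 109 bp in the highest. The part that width plays in the shares by Otx2 fold was not tested.

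At p300-only intervals where both Otx2 and p300 were strong, marks were rarer than in the class as a whole. The class had 10.2% with H3K27ac and 20.2% with H3K4me1, and all Otx2 intervals on chromosomes had 15.9% and 27%. In the 657 p300-only intervals in the highest 10% of both folds, 16 met H3K27ac (2.44%, 1.40 to 3.92%) and 35 met H3K4me1 (5.33%, 3.74 to 7.33%). Among the 411 with an Otx2 −log10 q of at least 10, 10 met H3K27ac (2.43%) and 33 met H3K4me1 (8.03%). Within that small set the odds ratios against TLE-only intervals, 2.53 for H3K27ac and 1.04 for H3K4me1, and against neither coregulator, 1.16 and 1.09, were not called. Those against both coregulators were called, at 0.151 (0.0769 to 0.296) for H3K27ac and 0.162 (0.110 to 0.240) for H3K4me1.

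The 10 intervals ranked highest by the lower of their Otx2 and p300 percentiles met no mark, 0 of 10 for either, where the class as a whole had 10.2% with H3K27ac and 20.2% with H3K4me1. A count of 10 is too small to read a difference from. They were 92 to 274 bp wide, with an Otx2 fold of 7.88 to 12.2 and a p300 fold of 22.4 to 24.7. The first, at chr2:83769208-83769357, had an Otx2 fold of 10.4 and a p300 fold of 24.7. Its nearest TLE summit was 1453 bp away, its nearest Lim1 peak 13917 bp and its nearest H3K4me1 domain 3380 bp. The second, at chr8:60500818-60501000, had folds of 8.41 and 24.6, with the nearest TLE summit at 16221 bp and the nearest H3K27ac domain at 5857 bp. The third, at chr1:123881778-123882041, lay 25689 bp from a TLE summit but 1042 bp from a Lim1 peak, the closest Lim1 peak of the 10. The interval with the highest Otx2 fold of the class, 12.6 at chr7:15366934-15367061, likewise met no mark and was 31378 bp from a TLE summit.

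The highest p300 fold, 40.2, was at chr6:22040372-22040586, where the Otx2 fold was only 3.0. A TLE summit lay 573 bp away, while the nearest H3K27ac domain was 31929 bp and the nearest H3K4me1 domain 102957 bp off. The widest interval, 1569 bp at chr2:1082838-1084406, had modest folds of 3.10 for Otx2 and 4.59 for p300 and met no mark. Single intervals without a mark are the usual case, since 76.8% of the class met neither.

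The 5 intervals at the H3K27ac domains of highest fold had p300 folds from 3.23 to 11 and Otx2 folds from 3.52 to 5.54. The highest H3K27ac fold, 9.26, belonged to a domain at chr8:59640759-59641056 inside the interval chr8:59640748-59641067, which had an Otx2 fold of 5.54, a p300 fold of 11 and an H3K4me1 domain of fold 4.31. The next, at chr6:116088494-116088684, had an H3K27ac fold of 8.22 with an Otx2 fold of 3.52 and a p300 fold of 4.86. A TLE summit lay 354 bp and a Lim1 peak 218 bp from it. At chr1:40648878-40648988 the H3K27ac fold was 8.01 and a Lim1 peak lay 273 bp away, with the nearest H3K4me1 domain 35 bp outside the interval. The other 2 of the 5, on chromosome 4, had H3K27ac folds of 7.80 and 7.69 and both met H3K4me1.

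TLE summits lay at moderate distances from p300-only intervals. The median distance from the interval's midpoint to the nearest TLE summit was 3507 bp, with a range from 49 to 121558 bp and a 5th to 95th percentile range of 360 to 22194 bp. A summit lay within 500 bp of 9.48% of the intervals and within 1000 bp of 20.7%. For intervals with neither coregulator, which also had no TLE peak on them, the median was 4151 bp and 17.2% lay within 1000 bp. The farthest TLE summit, at 121558 bp, belonged to a 66 bp interval at chr8:102078356-102078421.

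The median gap between a p300-only interval and the nearest Lim1 peak was 5201 bp, with a range from 1 bp, an adjoining peak, to 144804 bp, and 15.8% had a Lim1 peak within 1000 bp. The median was 5525 bp for TLE only, 4483 bp for both coregulators and 5613 bp for neither. In these classes 12.2%, 16.9% and 14.1% had a Lim1 peak within 1000 bp. Gsc peaks, the shortest list, lay a median of 32174 bp away. The nearest H3K27ac domain lay a median of 5182 bp away and the nearest H3K4me1 domain 3136 bp, and 22.8% and 35.7% of the intervals had one within 1000 bp. For H3K27ac that share was 20.6% for TLE only, 43.3% for both coregulators and 17.1% for neither. For H3K4me1 it was 29.6%, 60.1% and 21.6%. Distances scale with the lengths of the lists, so they are not compared between lists.

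**Figure D4:**
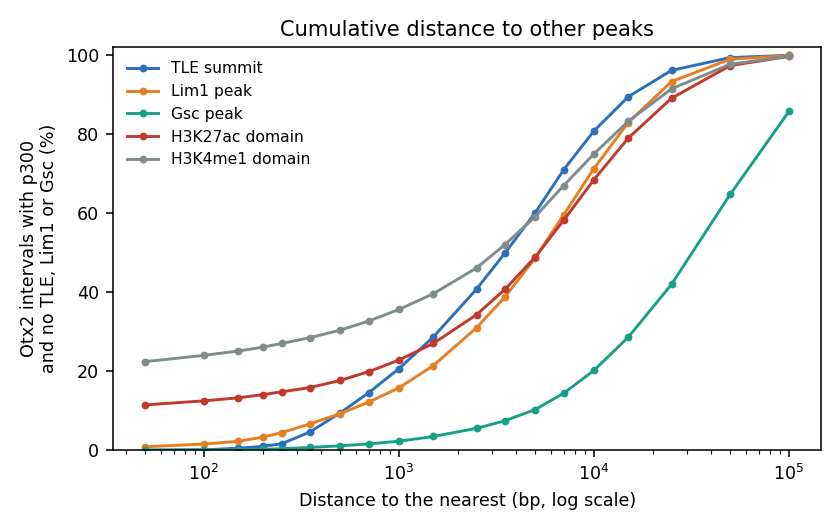
Cumulative share (%) of the 22177 Otx2 intervals with p300 and no TLE, Lim1 or Gsc whose nearest TLE summit, Lim1 peak, Gsc peak or histone mark domain lies within the distance on the log axis (bp). The TLE curve passes 20.7% at 1000 bp and the Lim1 curve 15.8%; the mark curves start above 0 since marks may overlap the interval.

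The p300-only intervals with a TLE summit within 1000 bp carried marks more often than those farther from TLE. H3K27ac was met by 20.9% of the 364 p300-only intervals with a TLE summit within 250 bp (16.8 to 25.4%). It was met by 38.8% of the 1739 with a summit 250 to 500 bp away (36.5 to 41.2%) and by 18.3% of the 2480 at 500 to 1000 bp. From 1000 to 2500 bp the share was 6.87%, and in the 3 ranges beyond that it lay between 5.69% and 5.82%. H3K4me1 followed the same course, with 38.7%, 52.7%, 34.3% and 16.4% in the 4 nearer ranges and 13.9 to 14.1% in the 3 farther ones. Intervals with neither coregulator had the same form at lower levels, with a highest H3K27ac share of 17.1% at 250 to 500 bp and 3.81 to 4.52% beyond 2500 bp. The median width of the p300-only intervals was 87.5 bp in the nearest range, 110 bp at 250 to 500 bp and 112 to 114 bp beyond 2500 bp. The rule keeps TLE peaks off the interval, so wide intervals can seldom have a summit within 250 bp of the midpoint. Width was not held in these shares, and the part this plays was not tested.

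The shares of p300-only intervals with a mark also fell with distance from Lim1, here from the nearest range onwards. Lim1 distances run from edge to edge and TLE distances from midpoint to summit, so the 2 courses are not compared. The median width within 250 bp was 120 bp for Lim1 and 87.5 bp for TLE. H3K27ac was met by 40.7% of the 993 p300-only intervals with a Lim1 peak within 250 bp (37.6 to 43.8%), by 31.4% at 250 to 500 bp, 15.1% at 500 to 1000 bp and 5.98% beyond 10000 bp. The corresponding H3K4me1 shares were 45.3%, 43.4%, 30.4% and 14.9%. In TLE-only intervals the H3K27ac share within 250 bp of Lim1 was 12.7%, in those with both coregulators 29.1%, and in those with neither 23.4%. Beyond 10000 bp these classes had 3.53%, 15.1% and 3.64%, so all 4 classes had higher H3K27ac shares near Lim1.

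**Figure D5:**
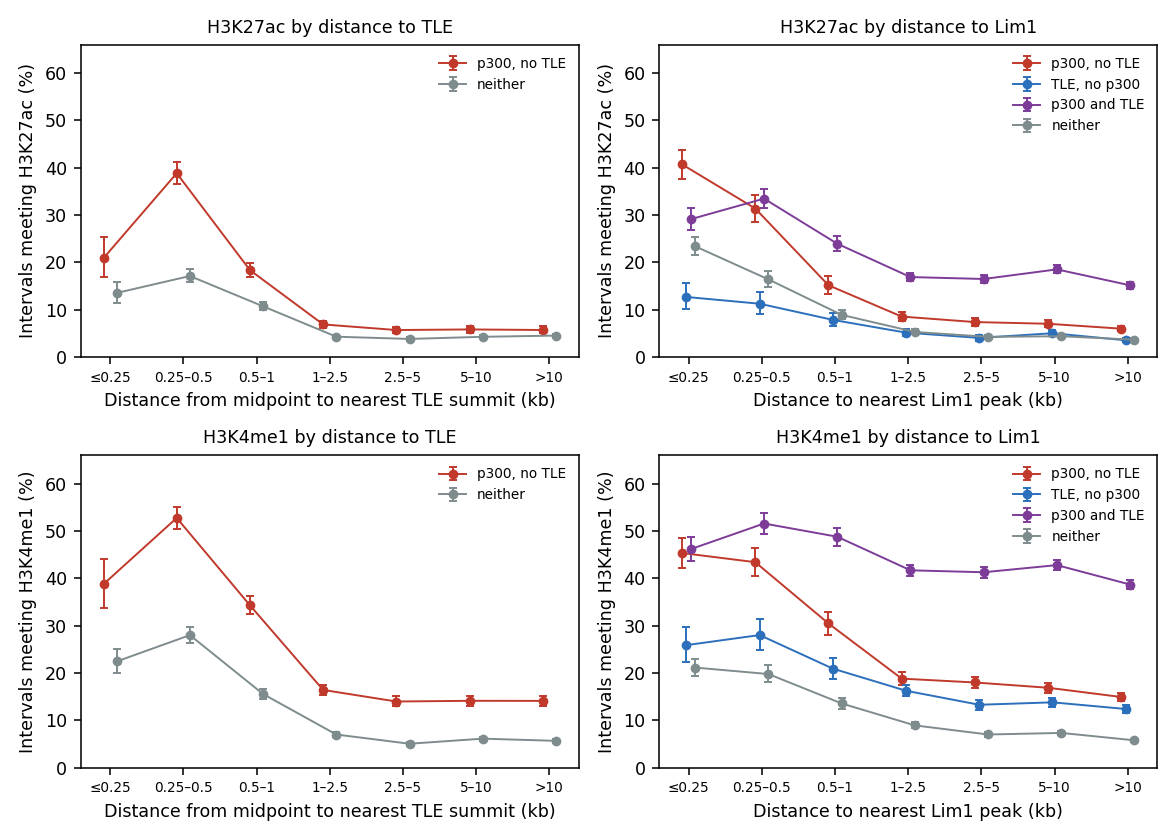
Share of Otx2 intervals that met H3K27ac (top, %) or H3K4me1 (bottom, %) by distance (kb) from the midpoint to the nearest TLE summit (left) or from the interval to the nearest Lim1 peak (right). Points are shares with exact 95% intervals by class, and classes with TLE on them are left out on the left; for p300 without TLE the H3K27ac share peaks at 38.8% with TLE 0.25 to 0.5 kb away.

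The p300-only intervals were also divided by whether TLE, Lim1, both or neither lay nearby, and marks were most frequent with both. With a TLE summit and a Lim1 peak both within 1000 bp, 44.0% of 1452 p300-only intervals met H3K27ac (41.4 to 46.6%) and 59.5% met H3K4me1 (56.9 to 62.0%). With TLE alone nearby the shares were 18.1% and 33.3% of 3131, and with Lim1 alone nearby 15.5% and 23.8% of 2052. The remaining 15542 intervals, 70.1% of the class, had neither within 1000 bp, and 4.77% (4.44 to 5.12%) met H3K27ac and 13.4% (12.9 to 14%) met H3K4me1. Otx2 intervals with neither coregulator and with neither TLE nor Lim1 within 1000 bp had 3.19% and 5.16%. That class also had its highest shares with both nearby, at 23.1% and 32.0% of 2110. Its shares were 10.1% and 16.9% with TLE alone nearby, and 11.7% and 11.5% with Lim1 alone nearby. Of the p300-only intervals that met H3K27ac, 53.2% had a TLE summit within 1000 bp, and of those that met H3K4me1, 42.6% had one. When p300-only intervals were required to have no TLE, Lim1 or Gsc peak within 500 bp, their H3K27ac share was 5.35% of 17792 instead of 10.2%. In that setting the H3K27ac odds ratio fell from 2.31 to 1.33 (1.21 to 1.46) against TLE only. It fell from 1.65 to 1.26 (1.16 to 1.37) against neither coregulator. The H3K4me1 odds ratio fell from 1.51 to 1.11 against TLE only, whereas against neither it stayed at 2.48. TLE-only intervals kept their TLE peaks under this rule.

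The lower share of marks at high p300 fold was also seen away from TLE. Among p300-only intervals with no TLE summit within 1000 bp, H3K27ac went from 9.36% (8.36 to 10.4%) in the lowest p300 quintile to 3.86% (3.26 to 4.54%) in the highest, and H3K4me1 from 18.3% to 9.43%. Among those with a TLE summit within 1000 bp, H3K27ac was 32.1% (29.5 to 34.6%) in the lowest quintile and 22.7 to 25.1% in the other 4. TLE summits within 1000 bp were themselves found at 30.0% of intervals in the lowest p300 quintile and at 17.7% in the highest. The median distance to the nearest Lim1 peak was 3429 bp in the lowest p300 quintile and 6676.5 bp in the highest. Lim1 was not held in these shares, and the part this plays was not tested.

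The limits of the class were examined at its edges. The 2355 p300-only intervals that shared at most 50 bp with their p300 peak met H3K27ac in 10.9% of cases (9.68 to 12.2%). Otx2 intervals that were left out because a p300 peak lay within 50 bp without touching numbered 747, and 15.3% of them met H3K27ac (12.8 to 18.0%). At this edge H3K27ac was thus more frequent just outside the class than just inside it. H3K4me1 was met by 18.0% of the 2355 and 18.5% of the 747. On the TLE side, the 164 p300-only intervals with a TLE peak within 50 bp met H3K27ac in 18.9% and H3K4me1 in 39.0% of cases. The 783 intervals with p300 that shared at most 50 bp with TLE, and so fell outside the class, had 16.9% and 38.8%. Another 199 members had a Lim1 peak within 50 bp, of which 38.2% met H3K27ac, and 14 had a Gsc peak that close, of which 5 did.

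The p300-only intervals were spread over the genome. They made up 11.8 to 13.9% of the Otx2 intervals on each of the 10 chromosomes and occupied 9932 of the 12723 windows of 100 kb that held an Otx2 interval, with at most 22 in a window. Neighbouring members lay a median of 35620 bp apart, and 642 neighbouring pairs (2.90%) were closer than 1000 bp. The share with H3K27ac was 8.43 to 11.4% on 9 chromosomes and 15.5% on chromosome 10. Chromosome 10 also had the highest H3K27ac share in the 3 other classes, at 7.79% for TLE only, 24.4% for both coregulators and 8.24% for neither. H3K4me1 at p300-only intervals ranged from 18.1% on chromosome 5 to 22.9% on chromosome 9.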

How the data were processed

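ChIP-seq peak lists for 7 antibodies were used, and the 4 inputs entered no calculation. Per the submitters' processing notes, MACS2 and deepTools were used, without versions. The aligner, genome build and read filters were taken as unknown, being not given in the sources used here. Each line of the deposited lists holds a fold enrichment (a ratio), −log10 p and q values and a score that is derived from q. For p300, TLE and Gsc, whose lists are in narrow format, the authors also deposited each summit as an offset. Peaks were called per library, with 1 library per antibody, and the fold and q values are the authors' own.

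Lines that repeat a narrow interval for several summits were reduced to 1 interval. Overlap means at least 1 bp. The highest fold was taken where several p300 peaks were met. Distances to TLE run from the interval's midpoint to the summit, and to other lists from edge to edge. Width strata were 10 deciles of Otx2 width, of which 9 formed because of ties at the shortest width. Odds ratios carry 95% intervals that are not adjusted over the comparisons and treat intervals of the genome as independent, so dependence between neighbours is not covered. The 6 main odds ratios are those of each mark against the 3 other classes. Those among H3K4me1 intervals and within p300 ranges were added after the data were examined, as were distance ranges, quintiles and edges. Depth is unknown. The procedures were tested on simulated data and overlaps were checked against bedtools.

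The members, classes and named regions were chosen with earlier results of these data known. Named regions are the 10 members whose lower percentile of Otx2 and p300 fold is highest, the members of highest Otx2 fold, p300 fold, width and distance from TLE and Lim1, and the 5 at the H3K27ac domains of highest fold. The gene table supplied for names uses UCB_Xtro_10.0, whose last gene lies past the last peak on all 10 chromosomes, so no gene was assigned. Python 3.11.15, numpy 2.4.6, pandas 2.3.3, scipy 1.17.1 and matplotlib 3.10.9 were used. Alternatives covered strata, thresholds with a −log10 q of at least 10, overlap rules, exclusion distances, a fixed window of 200 bp, scaffolds, runs of neighbours and each chromosome left out.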

Additional observations from a re-analysis of the deposited data

How the results depend on the processing

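No paired analysis was possible because only 1 library was made per antibody. Of the 156 recomputed odds ratios, 146 kept their direction and call, among them 60 of 60 with a chromosome left out and 86 of 96 in 16 other settings, 2 of which (p300 fold in the highest quintile, and no TLE, Lim1 or Gsc within 1000 bp) were chosen after seeing the data. The cause of the changes below was not tested.

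The H3K27ac odds ratio against both coregulators turned to 1.12 with 50% overlap and to 1.83 with strict TLE, Lim1 and Gsc lists. The H3K4me1 odds ratio against TLE only turned to 0.764 with strict p300 peaks, where TLE only also took in intervals with a weaker p300 peak. It was not called at 0.936 (0.852 to 1.03) in the highest p300 quintile, nor at 1.01 with the exclusion of 1000 bp. That exclusion applied to TLE only at intervals without a TLE peak. The H3K4me1 odds ratio against both coregulators was 1.11 with strict marks, not called. Among strict Otx2 intervals, H3K27ac gave 2.53 against TLE only and 1.16 against neither coregulator, and H3K4me1 1.04 and 1.09, none of them called. Against both coregulators the calls held there, at 0.151 for H3K27ac and 0.162 for H3K4me1.

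The number of p300-only intervals was 4436 in the highest p300 quintile, 411 with strict Otx2, 8295 with strict p300 and 41975 with strict TLE, Lim1 and Gsc lists. Their shares with H3K27ac and H3K4me1 were, in that order, 7.60 and 13.8%, 2.43 and 8.03%, 9.62 and 18.4%, and 23.3 and 35.3%. The 41975 took in intervals that met weaker TLE, Lim1 or Gsc peaks. Excluding TLE, Lim1 and Gsc within 500 bp gave 5.35 and 14.6%, and within 1000 bp 4.57 and 13.1%. Counting marks within 1000 bp gave 22.8 and 35.7%, strict marks 1.94 and 1.51%, 50% overlap 8.66 and 17.8%, a fixed window of 200 bp 10.9 and 21.6%, and added scaffolds 11.4 and 21.8%. H3K4me1 alone also moved to 19.6% with 1 interval per run of neighbours and to 22.2% with a summit inside the interval.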
